A study of Mus musculus with 3 samples.

Results

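The 9 genes described here encode the core of the B cell receptor (BCR) signaling machinery. They were taken by symbol from the 32285 genes counted, without use of their values, and all 9 were found and had UMIs in every library. They are *Cd79a* and *Cd79b*, the signaling chains of the receptor, the kinase genes *Lyn*, *Syk* and *Btk*, the adaptor gene *Blnk* and the phospholipase gene *Plcg2*, and the inhibitor genes *Cd22* and *Ptpn6*. Their RNA was counted in single splenic B cells with a 3′ droplet method, as unique molecular identifiers (UMIs), 1 for each RNA molecule captured. Each genotype gave 1 library, from spleens taken 10 days after the mice were immunized once, by the intraperitoneal route, with sheep red blood cells (SRBCs), an antigen that drives germinal center (GC) reactions. The labels give no age for these mice. WT mice carried no *BCL2* construct. 3′RR-*BCL2* mice carried a randomly integrated human *BCL2* transgene with its own P1/P2 promoters under the core enhancers of the 3′ regulatory region of the IgH locus. Igκ-*BCL2* mice carried the same *BCL2* cassette as a knock-in that takes the place of the Jκ region of the Igκ locus, so that this allele cannot rearrange a κ light chain, and the label does not say whether 1 or both alleles carried it. Both models had a mixed B6/129 background. How many mice went into each library is not given in the sources used here.

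A BCR is a membrane immunoglobulin held together with a CD79A and CD79B pair, whose cytoplasmic tails carry the tyrosine motifs that start signaling. When antigen clusters receptors, LYN phosphorylates these motifs and SYK docks on them, and SYK with the scaffold BLNK then brings BTK to PLCγ2, which raises calcium and diacylglycerol. The same kinase LYN also marks the inhibitory receptor CD22, which recruits the phosphatase SHP-1, encoded by *Ptpn6*, and so limits the signal. GC B cells are known for BCR signals that are weaker or routed differently than those of naive B cells, and class-switched plasma cells for low surface BCR.

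The WT library held 11269 cell barcodes, the 3′RR-*BCL2* library 7579 and the Igκ-*BCL2* library 7034, with 62777659, 45539172 and 37433924 UMIs. Filters on genes, UMIs, mitochondrial and ribosomal RNA and on T cell and macrophage RNA left 9932, 6561 and 6243 cells, with a median of 5031, 5291 and 4838 UMIs. Libraries shared at most 24 barcode sequences in any pair. The label of the WT library names sorted B cells and those of both *BCL2* libraries whole tissue cells, while the methods describe magnetic B cell selection for all. Of 9956, 6580 and 6259 barcodes that passed the other filters, 18, 14 and 16 were marked by *Cd3* UMIs. A further mark, by *C1q* UMIs, was found on 6, 5 and 0. *Ms4a1* (CD20) lay between 1029 and 1145 UMIs per 1000000 in resting-like cells of the 3 libraries. That cannot tell these inputs apart, as the cells had already been filtered and named. *Xist* was present in 3′RR-*BCL2* (1691 UMIs per 1000000 in resting-like cells) and near 0 in WT (0.140) and Igκ-*BCL2* (0.181), with the reverse for the Y-linked *Ddx3y* (0.0424, against 207 and 198), so in any comparison with 3′RR-*BCL2* sex, library and genotype cannot be told apart, while WT and Igκ-*BCL2* were alike in these genes. Where values come in threes with no library named, their order is WT, 3′RR-*BCL2*, Igκ-*BCL2*. With no replicates no test was made. Levels are UMIs per 1000000 summed over the cells of a stage, and ranges in parentheses are exact 95% intervals of counting error alone. Because the 3′ counts of 2 genes also depend on how well each is captured, levels were compared between stages and libraries and not between genes.

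Cells were clustered without immunoglobulin genes, *Bcl2*, the 9 genes or 57 further BCR pathway genes, and clusters were named from marker lists. The groups were resting-like, transitional-like (recent arrivals from the bone marrow), marginal zone-like, IFN-activated-like, activated-like (growth genes *Srm* and *Ccnd2*), centrocyte-like and centroblast-like (dividing GC) cells. The resting-like cluster held 7 of 7 resting markers at a higher level than other cells, but heat shock genes *Hspa1b* and *Hspa1a* were also among its 10 leading genes. The marginal zone-like cluster was led by *Lyz2*, *S100a4* and *Jchain*, with 7 of 7 marginal zone markers higher but only 2 of them, *Cd9* and *Fcrl5*, among the 10 leading genes. Leading genes were taken before the plasma-marker cells, described next, were removed from the clusters. After that, *Jchain* lay at 2.71, 15.5 and 17.4 UMIs per 1000000 in marginal zone-like cells, against 2.50, 35.2 and 31.5 in resting-like cells. Plasma-marker cells are barcodes with UMIs of at least 6 of 13 plasma cell markers, taken with no upper limit on UMIs. They still held *Ms4a1* at 641 to 1055 UMIs per 1000000, and 10 of 52 in WT, 37 of 110 in 3′RR-*BCL2* mice and 14 of 64 in Igκ-*BCL2* lay in the GC clusters, so they are no pure plasma cells. A further cluster led by *Gm42418* and *AY036118* was left unnamed. The WT library gave 6673 resting-like but only 82 centrocyte-like and 55 centroblast-like cells, and Igκ-*BCL2* only 25 centroblast-like cells, so the GC values of these have wide intervals.

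RefSeq promoter windows, from 250 bases before to 50 after the start site on GRCm38.p6, were held by the reference table for 7 of the 9 genes. They are shown for 3 genes, the 1 with the lowest and the 2 with the highest mean log2 ratio of GC to resting-like cells. *Cd79a* was lower in GC cells, summed over centrocyte-like and centroblast-like cells, than in resting-like cells, and *Blnk* and *Plcg2* were higher. Capitals mark matches, on either strand, to the E-box CAGGTG bound by E proteins, the ETS core GGAAGT and the octamer ATGCAAAT bound by OCT factors, and none of these matches overlap.
*Cd79a* promoter, chr7:24897247-24897546, plus strand: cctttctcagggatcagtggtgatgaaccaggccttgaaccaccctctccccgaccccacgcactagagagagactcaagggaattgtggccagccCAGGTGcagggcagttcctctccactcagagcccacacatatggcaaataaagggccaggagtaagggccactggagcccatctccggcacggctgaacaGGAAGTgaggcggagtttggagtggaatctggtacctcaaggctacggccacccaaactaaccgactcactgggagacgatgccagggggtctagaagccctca
*Blnk* promoter, chr19:40994172-40994471, minus strand: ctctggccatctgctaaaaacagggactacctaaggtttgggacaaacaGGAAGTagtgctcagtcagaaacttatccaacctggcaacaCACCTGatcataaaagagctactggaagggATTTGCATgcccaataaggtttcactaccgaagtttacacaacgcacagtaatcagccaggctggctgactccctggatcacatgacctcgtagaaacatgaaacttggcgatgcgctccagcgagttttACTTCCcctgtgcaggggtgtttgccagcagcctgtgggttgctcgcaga
*Plcg2* promoter, chr8:117498025-117498324, plus strand: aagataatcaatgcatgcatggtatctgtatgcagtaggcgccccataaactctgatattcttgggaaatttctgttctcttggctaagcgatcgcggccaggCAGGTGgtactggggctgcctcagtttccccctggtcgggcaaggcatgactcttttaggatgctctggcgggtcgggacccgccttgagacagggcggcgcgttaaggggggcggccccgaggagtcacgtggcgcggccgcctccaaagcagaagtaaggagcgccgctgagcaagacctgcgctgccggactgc
The E-box was found in 7 of the 8 windows of these genes (*Syk* has 2), *Btk* being the exception, against 20.2% of all 32851 windows in the table. The ETS core was found for 4 (*Cd79a*, *Blnk*, *Ptpn6* and 1 of 2 *Syk* windows), against 23.8% of all windows, the octamer for *Blnk* alone, against 1.74%, and the EBF palindrome CCCNNGGG for *Cd22* alone, against 13.7%. The E-box was thus shared by genes that were higher and genes that were lower in GC cells. A match is a description of these letters and not evidence of binding.

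**Figure D1:**
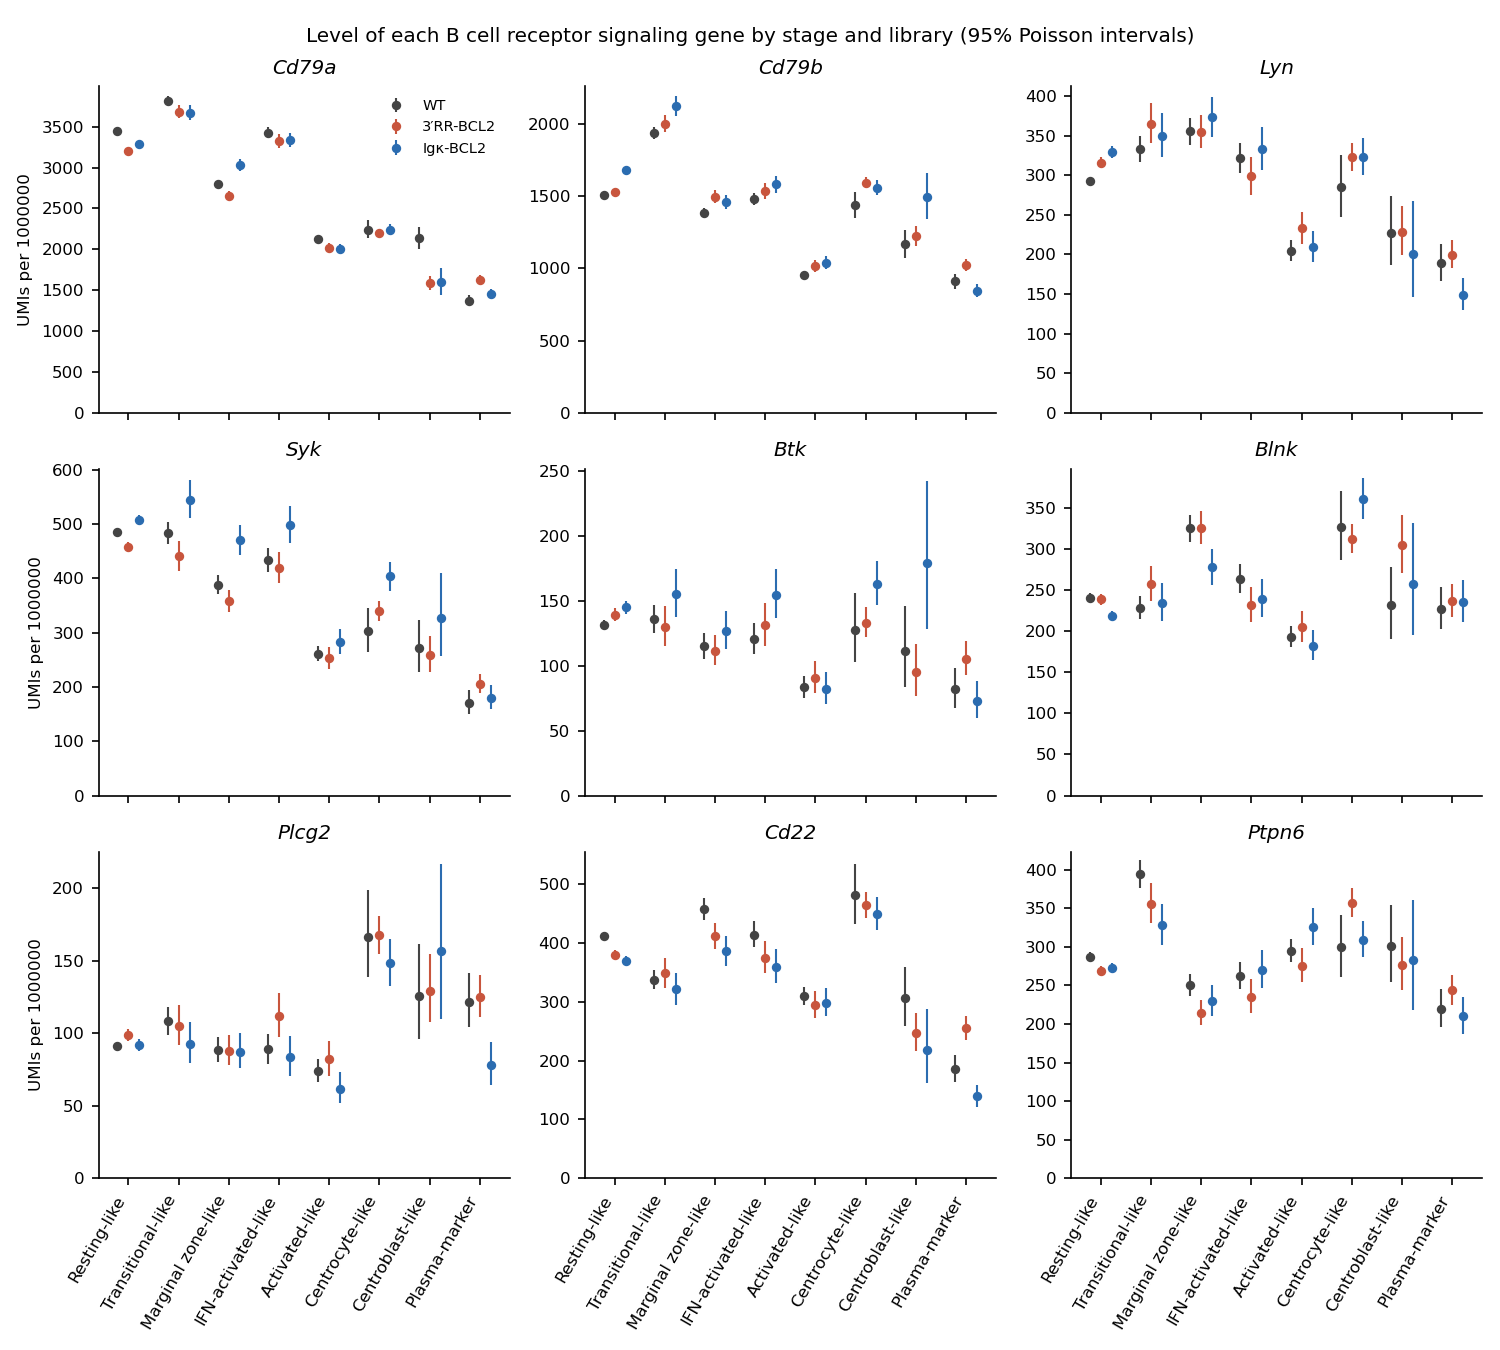
Level of each of the 9 genes in UMIs per 1000000 (y axis, from 0) in 8 groups of cells (x axis), with 1 point per library (WT grey, 3′RR-BCL2 red, Igκ-BCL2 blue) and bars for exact 95% Poisson intervals. Cd79a is highest in transitional-like cells, at 3671 to 3814, and lies at 1374 to 1630 in plasma-marker cells, while Plcg2 is highest in GC cells.

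Both receptor chain genes varied between stages. *Cd79a* (ENSMUSG00000003379, chromosome 7 from 24897381 to 24902197, GRCm38) made up 3447 UMIs per 1000000 in resting-like cells of WT, 3206 in 3′RR-*BCL2* mice and 3288 in Igκ-*BCL2*. It lay at 3814, 3682 and 3671 in transitional-like cells, at 2127, 2019 and 2008 in activated-like cells, and at 2242, 2199 and 2242 in centrocyte-like cells. In all 3 libraries the order was transitional-like, resting-like, marginal zone-like, then activated-like or centrocyte-like, and the level in IFN-activated-like cells (3429, 3325 and 3335) was close to that in resting-like cells. Against resting-like cells of the same library the log2 ratio in centroblast-like cells was -0.69 (-0.78 to -0.60) in the WT library, -1.02 (-1.09 to -0.94) in 3′RR-*BCL2* mice and -1.04 (-1.20 to -0.90) in Igκ-*BCL2*. Plasma-marker cells held 1374, 1630 and 1457 UMIs per 1000000, the lowest level of *Cd79a* in WT and Igκ-*BCL2*, whereas in 3′RR-*BCL2* the centroblast-like cells were lower, at 1586.

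These levels are shares of all UMIs, and the stages differed in UMIs per cell. Mean *Cd79a* UMIs per cell were 18.4, 17.8 and 16.8 in resting-like cells and 16.2, 15.8 and 15.2 in activated-like cells, which is a far smaller gap than that of the shares. Plasma-marker cells, low by share, held the most *Cd79a* UMIs per cell, 36.9, 36.3 and 33.7, as their mean UMI count was 22291 to 26836 against 5116 to 5544 in resting-like cells. Barcodes that hold more than 1 cell were not removed.

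*Cd79b* (ENSMUSG00000040592, chromosome 11 from 106311341 to 106314762) encodes the partner chain and followed *Cd79a* in some stages but not in centrocyte-like cells. It made up 1506, 1528 and 1680 UMIs per 1000000 in resting-like cells and 1939, 2003 and 2125 in transitional-like cells, with a log2 ratio of 0.36 (0.33 to 0.40) in the WT library, 0.39 (0.34 to 0.44) in 3′RR-*BCL2* mice and 0.34 (0.29 to 0.39) in Igκ-*BCL2*. Activated-like cells were lower in each library, at 957, 1014 and 1039. In centrocyte-like cells, in contrast, it lay at 1437, 1594 and 1558, within 0.11 of resting-like cells on the log2 scale and not in the same direction in every library. Centroblast-like cells were lower in each library, as for *Cd79a*, with log2 ratios of -0.37 (-0.49 to -0.25), -0.32 (-0.41 to -0.24) and -0.17 (-0.33 to -0.02).

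The ratio of *Cd79a* to *Cd79b* was lower in centrocyte-like than in resting-like cells, though not in these alone. In resting-like cells there were 2.29 (2.27 to 2.31) *Cd79a* UMIs per *Cd79b* UMI in WT, 2.10 (2.07 to 2.12) in 3′RR-*BCL2* mice and 1.96 (1.93 to 1.98) in Igκ-*BCL2*. In centrocyte-like cells there were 1.56 (1.44 to 1.69), 1.38 (1.33 to 1.43) and 1.44 (1.38 to 1.5), lower than in resting-like cells of each library with no overlap of the intervals. Activated-like cells, which had about the same share of *Cd79a* as centrocyte-like cells, kept a ratio of 2.22 (2.15 to 2.30), 1.99 (1.89 to 2.10) and 1.93 (1.84 to 2.04). In plasma-marker cells it was as low as 1.51 (1.41 to 1.62), 1.60 (1.52 to 1.68) and 1.72 (1.60 to 1.85), and transitional-like cells, at 1.97, 1.84 and 1.73, also lay below resting-like cells with no overlap of the intervals. The ratio does not depend on the total of UMIs used for scaling. Centroblast-like cells differed between libraries, with 1.83 (1.65 to 2.03) in the WT library, 1.30 (1.20 to 1.4) in 3′RR-*BCL2* mice and 1.07 (0.918 to 1.24) in Igκ-*BCL2*, and the WT interval lay above both others.

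**Figure D2:**
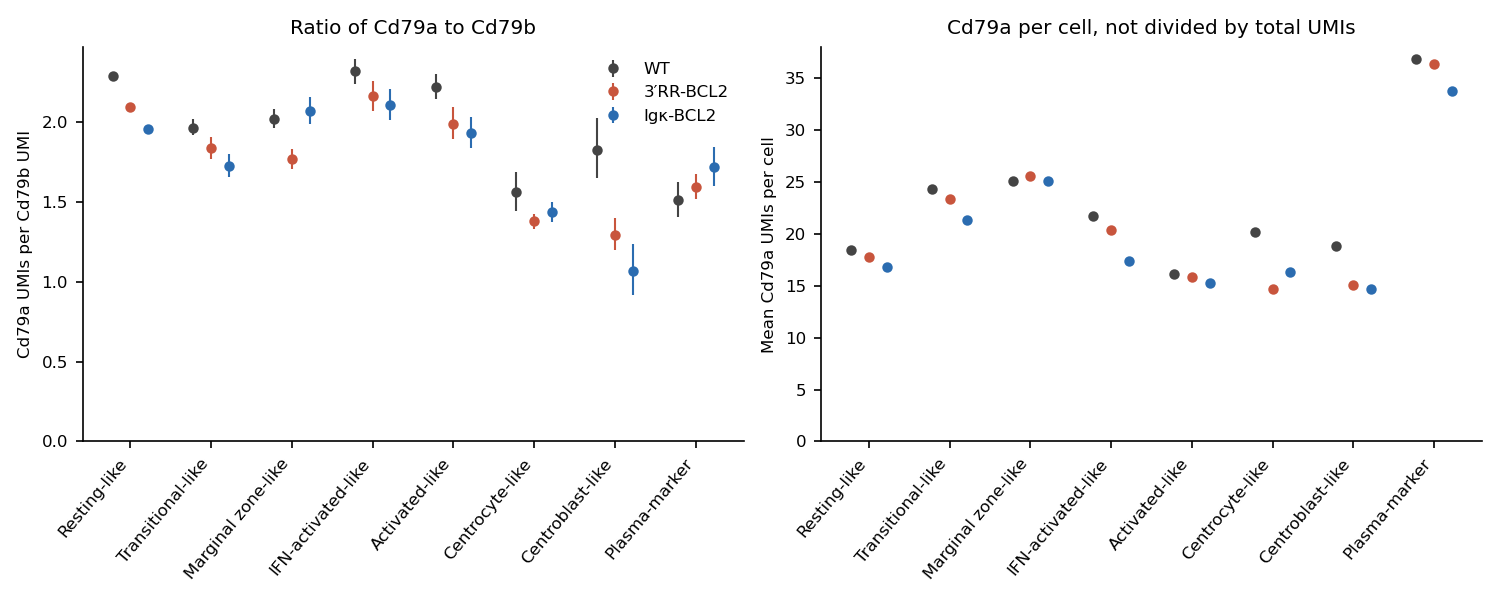
Cd79a UMIs per Cd79b UMI with exact 95% intervals (left) and mean Cd79a UMIs per cell (right) in 8 groups of cells, with 1 point per library (WT grey, 3′RR-BCL2 red, Igκ-BCL2 blue). The ratio is 1.38 to 1.56 in centrocyte-like cells against 1.96 to 2.29 in resting-like cells, and plasma-marker cells hold 33.7 to 36.9 Cd79a UMIs each.

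Of the kinase genes, *Syk* (ENSMUSG00000021457, chromosome 13 from 52583173 to 52648792), whose product binds the phosphorylated receptor tails, had the widest range. It made up 486, 458 and 507 UMIs per 1000000 in resting-like cells, and 262, 253 and 283 in activated-like cells, with log2 ratios of -0.89 (-0.98 to -0.81), -0.86 (-0.98 to -0.74) and -0.84 (-0.96 to -0.72). In centrocyte-like cells the levels were 304, 341 and 404, in centroblast-like cells 273, 259 and 327, and in plasma-marker cells 171, 206 and 180. Each of these lay below resting-like cells of the same library, while transitional-like cells (484, 441 and 545) were within 0.10 of them on the log2 scale.

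*Lyn* (ENSMUSG00000042228, chromosome 4 from 3678115 to 3813122), the Src family kinase that acts in both activating and inhibitory signaling, lay at 292, 316 and 329 UMIs per 1000000 in resting-like cells and at 285, 323 and 323 in centrocyte-like cells, with intervals of all 3 ratios that span 0. It was lower in centroblast-like cells, at 227, 229 and 200, and lower in plasma-marker cells, at 189, 200 and 149. In activated-like cells it lay at 205, 233 and 209. *Lyn* thus separated centrocyte-like from centroblast-like cells in 2 libraries, with a log2 ratio of centroblast-like over centrocyte-like cells of -0.50 (-0.71 to -0.29) in 3′RR-*BCL2* mice and -0.69 (-1.15 to -0.26) in Igκ-*BCL2*, while in WT it was -0.33 (-0.67 to 0.01).

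*Btk* (ENSMUSG00000031264, chromosome X from 134542336 to 134583570) encodes the Tec family kinase that activates PLCγ2. It was measured at 131, 139 and 145 UMIs per 1000000 in resting-like cells and at 83.4, 90.6 and 82.3 in activated-like cells, a log2 ratio of -0.65 (-0.80 to -0.51), -0.62 (-0.83 to -0.42) and -0.82 (-1.04 to -0.60). Centrocyte-like cells held 127, 133 and 163.

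*Blnk* (ENSMUSG00000061132, chromosome 19 from 40928927 to 40994535), the scaffold that links SYK to BTK and PLCγ2, went the other way in centrocyte-like cells. It made up 241, 238 and 218 UMIs per 1000000 in resting-like cells and 327, 312 and 360 in centrocyte-like cells, with log2 ratios of 0.44 (0.25 to 0.63), 0.39 (0.30 to 0.48) and 0.72 (0.61 to 0.83). In centroblast-like cells the ratios were -0.06 (-0.34 to 0.21), 0.35 (0.18 to 0.52) and 0.24 (-0.16 to 0.61). There only the 3′RR-*BCL2* interval left out 0. Marginal zone-like cells were also higher, at 325, 326 and 278, by 0.35 to 0.45 on the log2 scale. Plasma-marker cells, in which *Cd79a*, *Lyn* and *Syk* were low, held *Blnk* at 227, 237 and 236, with intervals of the ratio to resting-like cells that span 0 in each library.

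*Plcg2* (ENSMUSG00000034330, chromosome 8 from 117498291 to 117635142) encodes the phospholipase at the end of this chain and had the highest log2 ratio of the 9 to resting-like cells when all GC cells were summed, at 0.73, 0.69 and 0.70. It lay at 91.0, 99.0 and 92.1 UMIs per 1000000 in resting-like cells and at 167, 168 and 148 in centrocyte-like cells, with log2 ratios of 0.87 (0.60 to 1.13), 0.76 (0.63 to 0.89) and 0.69 (0.52 to 0.86), the last of these below that of *Blnk* in the same library. Centroblast-like cells were at 126, 130 and 157, also above resting-like cells in each library. Per cell, *Plcg2* went from 0.486, 0.549 and 0.471 UMIs in resting-like cells to 1.5, 1.12 and 1.08 in centrocyte-like cells. *Plcg2* was thus higher on both scales, and so was *Blnk*, with 1.29, 1.32 and 1.12 UMIs per resting-like cell and 2.94, 2.09 and 2.63 per centrocyte-like cell. Centrocyte-like cells held more UMIs each, with a mean of 8996, 6693 and 7292 against 5342, 5544 and 5116. *Cd79b*, about level by share, also went from 8.05, 8.47 and 8.59 to 12.9, 10.7 and 11.4 per cell, while *Cd79a* went up in WT alone. A rise per cell is thus not particular to *Plcg2* and *Blnk*.

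Both inhibitor genes differed between stages. *Cd22* (ENSMUSG00000030577, chromosome 7 from 30865402 to 30880342), a sialic acid-binding receptor that dampens BCR signals, made up 411, 380 and 370 UMIs per 1000000 in resting-like cells and 337, 348 and 321 in transitional-like cells. It was 481, 464 and 449 in centrocyte-like cells but 306, 247 and 218 in centroblast-like cells. The log2 ratio of centroblast-like over centrocyte-like cells was -0.65 (-0.94 to -0.37) in the WT library, -0.91 (-1.11 to -0.71) in 3′RR-*BCL2* mice and -1.04 (-1.48 to -0.63) in Igκ-*BCL2*, the widest gap of the 9 genes between these GC stages in each library. Within centrocyte-like cells, *Cd22* was highest in the subcluster of lowest depth (median 2389 UMIs), at 754, 892 and 730. It was 344, 369 and 380 in the subcluster with the most cells over the 3 libraries. That is below resting-like cells in WT and 3′RR-*BCL2* and slightly above them in Igκ-*BCL2*. The higher level in centrocyte-like cells was thus not shared by all their subclusters. Whether depth has a part in this was not tested.

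*Ptpn6* (ENSMUSG00000004266, chromosome 6 from 124720707 to 124738714), which encodes the phosphatase SHP-1, was higher in transitional-like cells, at 394, 356 and 328 UMIs per 1000000 against 287, 268 and 273 in resting-like cells. The log2 ratios were 0.46 (0.38 to 0.53), 0.41 (0.30 to 0.52) and 0.27 (0.14 to 0.39). Transitional-like cells thus held more *Cd79a*, *Cd79b* and *Ptpn6* and less *Cd22* than resting-like cells in all 3 libraries, though the mean log2 ratio of *Cd22* turned to 0.04 at a finer clustering, in which the resting-like reference was another cluster, of 5488 cells in place of 15264, led by *Lyz2*, *S100a4* and *S100a6*. In activated-like cells *Ptpn6* lay at 295, 276 and 326, the gene of the 9 whose ratio there was not below 0 in any library.

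**Figure D3:**
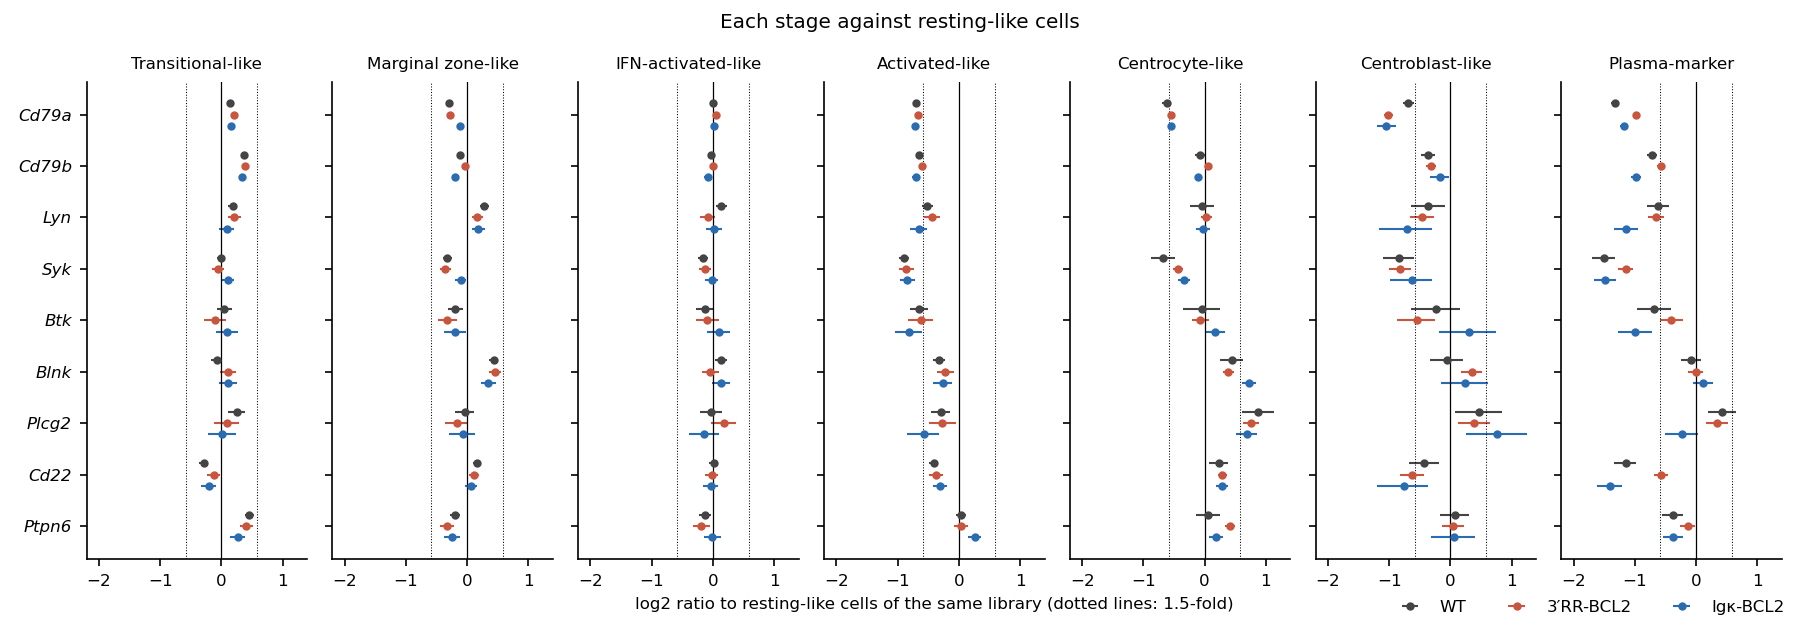
Log2 ratio of each of the 9 genes in 7 groups of cells to resting-like cells of the same library, with 1 point per library (WT grey, 3′RR-BCL2 red, Igκ-BCL2 blue), bars for exact 95% intervals and dotted lines at 1.5-fold. Most genes lie left of 0 in activated-like, centroblast-like and plasma-marker cells, while Plcg2 lies beyond the right dotted line in centrocyte-like cells at 0.69 to 0.87.

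A gene was counted as higher or lower in a stage when it was past 1.5-fold in the same direction in all 3 libraries, and the counts were set beside the share of all measured genes. In activated-like cells 4 of 9 were lower (*Cd79a*, *Cd79b*, *Syk* and *Btk*), against 9.46% of all genes, and 0 were higher, against 8.60%. The median log2 ratio there was -0.53 over the 9 genes and -0.12 over all genes. This count was 2 (*Cd79a* and *Syk*) at the finer clustering, with its other reference cluster, and also with immunoglobulin, ribosomal and mitochondrial genes taken out of the totals. *Cd79b* in 3′RR-*BCL2* lay just past the limit, at -0.59.
In centrocyte-like cells 1 was higher (*Plcg2*), against 8.18%, and 0 lower, against 8.09%. In centroblast-like cells 0 were higher, against 13.6%, and 2 lower (*Cd79a* and *Syk*), against 10.4%. In plasma-marker cells 0 were higher, against 11.6%, and 3 lower (*Cd79a*, *Lyn* and *Syk*), against 16.8%, while WT and Igκ-*BCL2* alone had 6 each, with *Cd79b*, *Btk* and *Cd22* besides, and 3′RR-*BCL2* had 3. With at least 8 markers the count was 6, and with plasma-marker cells held to the upper limits on genes and UMIs it was 1 (*Syk*).
In the remaining stages 0 of 9 passed, against 3.09% higher and 2.46% lower for transitional-like, 3.34% and 2.42% for marginal zone-like, and 1.70% and 0.370% for IFN-activated-like cells. Nothing particular to these genes is read from the counts in GC and plasma-marker cells.

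RNA of other cell types was measured beside these values. In marginal zone-like cells 10 myeloid genes summed to 506 UMIs per 1000000 in the WT library, 122 in 3′RR-*BCL2* mice and 26.1 in Igκ-*BCL2*, of which *Lyz2* made up 489, 114 and 17.0, while the macrophage genes *C1qa*, *C1qb* and *C1qc* were at 0 in each library. In GC cells 7 T cell genes summed to 63.8, 51.7 and 45.1, against 16.8, 17.5 and 14.0 in resting-like cells, of which *Lck* made up 61.4, 49.0 and 43.5, while *Cd3e*, *Cd4* and *Cd8a* were at 0 in GC cells of each library. Their part in the values of the 9 genes was not tested. The 24, 19 and 16 barcodes with *Cd3* or *C1q* UMIs that had been left out still held *Cd79a* at 1827, 1957 and 2053 UMIs per 1000000, at a median depth of 4791, 6135 and 7758.5 UMIs, so they could not serve as cells without BCR genes.

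The share of cells with at least 1 UMI was taken after each cell was thinned to 2000 UMIs, and it went with the level for some genes and stages but not for all. In WT, *Ptpn6* was found in 31.6% (21.4 to 43.3) of centrocyte-like and 41.2% (40.0 to 42.4) of resting-like cells, although its level was 299.6 and 287 UMIs per 1000000. *Cd79a* was found in 99.7% (99.5 to 99.8) of resting-like cells of WT, 99.5% (99.2 to 99.7) of 3′RR-*BCL2* mice and 99.5% (99.3 to 99.7) of Igκ-*BCL2*, and in 88.5% (76.6 to 95.6), 87.3% (79.6 to 92.9) and 81.0% (69.1 to 89.8) of plasma-marker cells. *Syk* went from 59.9%, 57.5% and 60.4% of resting-like cells to 40.7%, 38.3% and 44.0% of activated-like cells. *Plcg2* went from 16.6% (15.7 to 17.5), 16.5% (15.3 to 17.6) and 15.6% (14.6 to 16.8) of resting-like to 36.8% (26.1 to 48.7), 25.9% (22.2 to 29.9) and 21.5% (16.9 to 26.6) of centrocyte-like cells. In the left-out barcodes, at the same 2000 UMIs, the shares were 66.7%, 68.4% and 81.2% for *Cd79a* and 25.0%, 10.5% and 12.5% for *Plcg2*, on at most 24 barcodes, and the share of *Plcg2* in resting-like cells of WT did not exceed that in these barcodes. The thinning left out 101, 60 and 73 resting-like and 6, 63 and 17 centrocyte-like cells with fewer UMIs.

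Between libraries, resting-like cells differed little in the 9 genes. The log2 ratio of 3′RR-*BCL2* to WT ranged from -0.11 for *Cd22* (-0.15 to -0.08) to 0.12 for *Plcg2* (0.04 to 0.20), and that of Igκ-*BCL2* to WT from -0.15 for *Cd22* (-0.19 to -0.11) to 0.17 for *Lyn* (0.13 to 0.22). At 1.5-fold 0 of 9 passed for 3′RR-*BCL2*, against 4.30% of all genes higher and 4.63% lower, and 0 for Igκ-*BCL2*, against 8.23% and 4.58%. *Cd79a* was lower than in WT in both, by -0.10 (-0.12 to -0.09) and -0.07 (-0.08 to -0.05), and *Cd79b* was higher by 0.02 (0.00 to 0.04) and 0.16 (0.14 to 0.18). The intervals of most ratios leave out 0 because these sums are large, but they hold no variation between mice. Heat shock genes, a list of 10, made up 1612 UMIs per 1000000 in resting-like cells of WT, 4962 in 3′RR-*BCL2* mice and 7693 in Igκ-*BCL2*, and 10 immediate early genes 4296, 5649 and 5576. Their part in the ratios was not tested.

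In GC cells (centrocyte-like and centroblast-like together, 137 in WT, 681 in 3′RR-*BCL2* mice and 331 in Igκ-*BCL2*) the spread was wider. *Syk* made up 291, 324 and 397 UMIs per 1000000, with a log2 ratio to WT of 0.16 (-0.01 to 0.33) for 3′RR-*BCL2* mice and 0.45 (0.27 to 0.62) for Igκ-*BCL2*. *Btk* made up 121, 125 and 165, with 0.05 (-0.21 to 0.32) and 0.44 (0.17 to 0.72). *Cd79b* was higher in both *BCL2* libraries, by 0.19 (0.12 to 0.27) and 0.22 (0.14 to 0.31), and so was *Lyn*, by 0.22 (0.04 to 0.39) and 0.25 (0.06 to 0.44). The ratios of *Plcg2* were 0.09 (-0.14 to 0.33) and -0.01 (-0.27 to 0.25). At 1.5-fold 0 of 9 passed for either, against 9.58% of all genes higher and 9.58% lower for 3′RR-*BCL2*, and 13.4% and 10.6% for Igκ-*BCL2*, while in cells of 2000 to 10000 UMIs *Btk* passed in Igκ-*BCL2*, at 0.70. The share of centroblast-like cells among these was 55 of 137 in WT, 101 of 681 in 3′RR-*BCL2* mice and 25 of 331 in Igκ-*BCL2*, and the part of this mix in the pooled values was not tested. Within centrocyte-like cells alone the ratio of Igκ-*BCL2* to WT was 0.41 (0.20 to 0.63) for *Syk* and 0.36 (0.03 to 0.70) for *Btk*. For *Lyn* the intervals of both ratios spanned 0 there, at 0.18 (-0.03 to 0.40) and 0.18 (-0.04 to 0.41), and for *Cd79b* they were 0.15 (0.06 to 0.25) and 0.12 (0.02 to 0.22). *Syk* and *Btk* were not higher in Igκ-*BCL2* than in WT in every centrocyte-like subcluster. In that with a median of 7012 UMIs (22 WT cells), *Syk* lay at 421 in WT and 417 in Igκ-*BCL2*, and *Btk* at 161 and 158. In that with the most cells *Syk* lay at 244 and 363, and *Btk* at 113 and 158. In that of lowest depth (20 WT cells) *Syk* lay at 358 and 520, and *Btk* at 132 and 194.

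**Figure D4:**
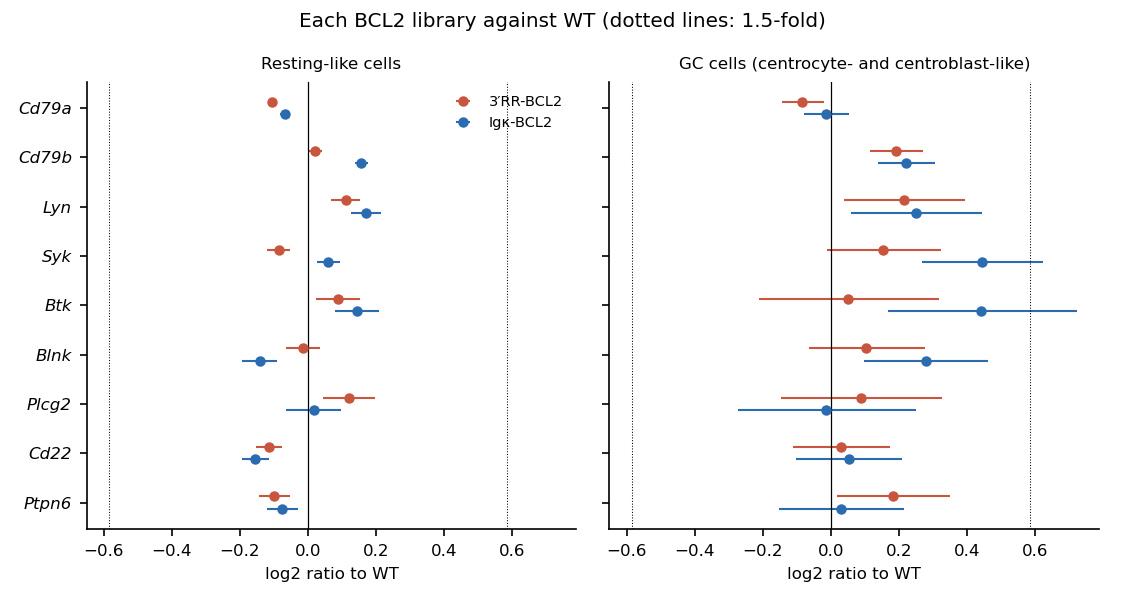
Log2 ratio of 3′RR-BCL2 (red) and Igκ-BCL2 (blue) to WT for each of the 9 genes in resting-like cells (left) and GC cells (right), with bars for exact 95% intervals and dotted lines at 1.5-fold. All points lie inside the dotted lines, from -0.15 to 0.17 in resting-like cells and up to 0.45, for Syk in Igκ-BCL2, in GC cells.

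*Blnk* in plasma-marker cells was close between libraries, at 227, 237 and 236 UMIs per 1000000. *Ptpn6* lay at 220, 243 and 210. *Cd22* and *Plcg2* differed more. *Cd22* lay at 185, 255 and 139, and *Plcg2* at 122, 125 and 78.3. Against 3′RR-*BCL2*, Igκ-*BCL2* had a log2 ratio of -0.88 (-1.11 to -0.65) for *Cd22* and -0.68 (-1.0 to -0.36) for *Plcg2*. It was -0.53 (-0.87 to -0.20) for *Btk*, -0.42 (-0.66 to -0.19) for *Lyn* and -0.27 (-0.37 to -0.17) for *Cd79b*. For *Ptpn6* it was -0.21 (-0.42 to -0.01) and for *Cd79a* -0.16 (-0.24 to -0.09), while the intervals for *Syk* and *Blnk* spanned 0. Immunoglobulin genes took 15.3% of the UMIs of these cells in Igκ-*BCL2* against 5.20% in WT and 5.29% in 3′RR-*BCL2*, and *Jchain* was 13480 UMIs per 1000000 against 5023 and 4989, so the cells behind the class differed in plasma cell RNA too.

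The 57 further genes of the pathway, a list of coreceptors, kinases, adaptors, downstream genes and inhibitors, showed where the 9 genes were alike to the rest. In activated-like cells 0 were higher and 8 lower of 55 measured, against 8.60% and 9.46% of all genes, with a median of -0.41 against -0.12. The 4 lowest by median were *Pirb* (-1.32), *Siglecg* (-1.08) and *Pecam1* (-1.04), inhibitory receptors, and *Stim1* (-1.05), a calcium sensor. In centrocyte-like cells 2 were higher and 9 lower, against 8.18% and 8.09%, with a median of 0.11 against 0.0036. Among those of the largest change were *Vav3* (-2.96), an exchange factor gene, *Akt1* (1.22), a kinase of the PI3K pathway, and *Cr2* (-1.10), the complement coreceptor. In centroblast-like cells 1 was higher and 15 lower, against 13.6% and 10.4%, with a median of -0.49 against -0.014, led by *Pirb* (-2.93), *Ptpn22* (-2.40), a phosphatase, *Vav3* (-2.12) and *Bank1* (-1.93), an adaptor. In plasma-marker cells 1 was higher and 19 lower, against 11.6% and 16.8%, with a median of -0.67 against -0.20, with *Pecam1* (-2.34), *Bank1* (-2.16) and *Malt1* (-1.76), a mediator of NF-κB activation, among the lowest. *Akt1* was higher in each of these GC and plasma-marker contrasts, at 1.52 in centroblast-like and 1.36 in plasma-marker cells.
In transitional-like cells 1 was higher and 1 lower of 55, against 3.09% and 2.46% of all genes. In marginal zone-like cells 3 were higher and 0 lower, against 3.34% and 2.42%. In IFN-activated-like cells 1 was higher and 0 lower, against 1.70% and 0.370%. *Nfatc2*, a calcium-responsive transcription factor gene, was lower in transitional-like cells (-1.41), and *Ptpn22* (1.78) and *Cr2* (1.58) were higher in marginal zone-like cells. Between libraries, *Ptpn22* and *Lair1*, an inhibitory receptor gene, passed in both *BCL2* libraries in resting-like cells, at -0.59 and -0.62 for *Ptpn22* and -0.97 and -1.02 for *Lair1*. Against WT in these cells, 0 were higher and 2 lower of 57 for 3′RR-*BCL2*, against 4.30% and 4.63% of all genes. For Igκ-*BCL2* 0 were higher and 6 lower, against 8.23% and 4.58%. In GC cells 0 were higher and 3 lower of 54 for 3′RR-*BCL2*, against 9.58% and 9.58%. For Igκ-*BCL2* 4 were higher and 0 lower of 53, against 13.4% and 10.6%.

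The 9 genes did not vary as 1 block over stages and libraries. Over 27 sums of a stage in a library, Pearson's r of log2 levels was 0.90 for *Cd79a* and *Syk*, 0.88 for *Lyn* and *Syk* and 0.87 for *Cd79b* and *Syk*, but 0.00 for *Cd79a* and *Blnk* and -0.29 for *Cd79a* and *Plcg2*. *Blnk* and *Plcg2* had an r of 0.56. These points share libraries and totals and are not independent. Of 9511 genes with enough UMIs, those with the most similar pattern to each, taken from the leading 3, were *Stk24*, *Tax1bp1* and *Prkce* for *Cd79a* (r 0.95, 0.95 and 0.95), *Ypel5*, *Klhl24* and *Bnip3l* for *Cd79b* (0.94, 0.92 and 0.92), *Cd37* and *Acp5* for *Lyn* (0.94 and 0.92) and *Slc25a37*, *Atp11b* and *Phf20l1* for *Syk* (0.95, 0.95 and 0.95). For *Btk* they were *Tab2*, *Ccnl2* and *Ptp4a3* (0.91, 0.90 and 0.90), for *Blnk* AU020206, *Unc119b* and *Abr* (0.86, 0.85 and 0.82), for *Plcg2* *Coro1a*, *Limd2* and *Sec14l1* (0.92, 0.91 and 0.91), for *Cd22* *Lrrk2*, *Nisch* and *Psd4* (0.93, 0.92 and 0.92) and for *Ptpn6* *Rexo1*, *Gfi1* and *Acin1* (0.74, 0.74 and 0.72). *Ptpn6* had the least similar partners of the 9.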

How the data were processed

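The deposited files hold UMI counts as whole numbers for each gene and barcode of 1 library per genotype (WT, 3′RR-*BCL2* and Igκ-*BCL2*), which the authors made with Cell Ranger 6.1.1 per the labels. Builds named there are mm10 and hg38, and the genes counted are mouse genes. The filters follow the methods of the study, with 800 to 4500 genes, no more than 20000 UMIs or 8% mitochondrial UMIs, and a minimum of 10% ribosomal UMIs. Barcodes with 2 or more UMIs from *Cd3* or from *C1q* genes were dropped. Clustering used Seurat 5.3.0 and sctransform 0.4.2 in R 4.3.3 (3000 features, of which 2836 were used, 30 correlation components, 12 principal components, 30 neighbors, resolution 0.2), and GC cells were divided with 10 principal components and 15 neighbors. A cluster was named by the class with most markers among its 10 leading genes, if a majority and at least 3 of its markers were higher, the last condition being added after the clusters were seen. If no cluster was named resting-like in this way, the largest unnamed cluster took that name when most resting markers were higher in it. At a resolution of 0.4 the reference of 5488 cells was named so, with 6 of 7 resting markers higher. Plasma-marker barcodes had 800 or more genes and up to 8% mitochondrial UMIs. Doublets were not removed, as Scrublet (scanpy 1.11.5) marked 1, 0 and 1 barcodes among the cells that passed the filters. Plasma-marker barcodes outside these filters were not scored.

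The members, lists and stages were chosen with earlier results of these data known. Pathway genes named are the 4 of largest absolute median per contrast among those past 1.5-fold in all libraries, or in both *BCL2* libraries, and a few genes that this rule or the pattern rule names are not reported here. Genes counted towards 1.5-fold had 20 UMIs or more in either sum, with 0.5 added. Genes compared by pattern had 500 UMIs or more, over sums of 100000 UMIs or more, on log2(UMIs per 1000000 + 5). Python 3.11.15 was used with scipy 1.17.1, numpy 2.4.6 and pandas 2.3.3. The intervals of *BCL2* library to WT ratios were run on Poisson counts simulated at the WT levels, which hold counting error alone. They covered the true value for 95.6% (3′RR-*BCL2*, 11970 genes) and 95.7% (Igκ-*BCL2*, 11980 genes) of ratios among resting-like cells, and for 96.1% (9360 genes) and 95.9% (8132 genes) among GC cells. Of genes simulated without change, 2.4% and 2.3% passed 1.5-fold among resting-like cells, and 8.48% and 6.78% among GC cells. Gene coordinates are from GENCODE on GRCm38. The alternatives tried are given with their effect at the end.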

Additional observations from a re-analysis of the deposited data

Results flagged for a closer look

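*Cd79b* pointed in opposite directions in the libraries when centrocyte-like cells were set against resting-like cells. The log2 ratio was -0.068 (-0.16 to 0.02) in the WT library, 0.061 (0.02 to 0.10) in 3′RR-*BCL2* mice and -0.109 (-0.16 to -0.06) in Igκ-*BCL2*. The difference was not tested, as there was 1 library per genotype, and all 3 values are far inside 1.5-fold.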

How the results depend on the processing

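No paired analysis was possible because each genotype had 1 library. Of the counts of members past 1.5-fold, those below moved by over 1.5 times. Lower members in activated-like cells were 2 at a resolution of 0.4 and 2 with immunoglobulin, ribosomal and mitochondrial genes out of the totals, 0 with stages from markers alone and 0 at a fold of 2. Lower members in centroblast-like cells were 0 with stages from markers alone and 0 at a fold of 2, and 1 (*Cd79a*) both with at least 8 plasma markers and with plasma-marker cells taken outside the GC clusters, and higher members in centrocyte-like cells were 0 at a fold of 2. Lower members in plasma-marker cells were 6 with at least 8 markers, 1 within the upper limits, 1 at a fold of 2, and 5 outside the GC clusters, an alternative chosen after seeing the data. For Igκ-*BCL2* against WT in GC cells, 1 member passed in cells of 2000 to 10000 UMIs. Minimums of 5 or 50 UMIs moved none of these counts. Reversed values were small. At a resolution of 0.4, where the reference was a cluster of 5488 cells led by *Lyz2* and clusters of 4827 and 3828 cells had no name, *Cd22* in transitional-like over resting-like cells was 0.0377 and *Ptpn6* in Igκ-*BCL2* over WT resting-like cells 0.0095. With stages from markers alone *Ptpn6* in marginal zone-like cells was 0.0038, *Plcg2* in activated-like cells 0.0396 and *Cd79b* in 3′RR-*BCL2* over WT resting-like cells -0.0317. The marker-only stages put 5831 of the resting-like cells among activated and 5853 among transitional cells, so these groups are mixed by construction. The mean ratio of *Cd79a* to *Cd79b* in GC cells was 1.43 to 1.54 over all alternatives, and *Plcg2* in centrocyte-like cells 0.74 to 0.93. Leaving out cells of high doublet score moved none of 119 values. Only cells that passed the filters had a score, among them 20 of 52, 56 of 110 and 36 of 64 plasma-marker barcodes. The other plasma-marker barcodes could not be left out, so this says little about doublets in that class. Leaving out the low-UMI centrocyte-like subcluster, also chosen after seeing the data, moved 2 of 32 values. These were the centrocyte-like over resting-like ratios of *Cd22*, which came nearer to 0, and of *Lyn*. Shares of cells with a UMI moved with the thinning depth by construction.

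With 1 library per genotype, no value holds variation between mice, and genotype cannot be told apart from library, nor from sex where 3′RR-*BCL2* is compared. Few cells were behind the centroblast-like values, with 25 cells in Igκ-*BCL2* and 55 in WT. UMIs per 1000000 are shares, so a gene can be lower by share and not per cell.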

Other observations

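*Cd22* was higher in some clusters of low depth, and not in these alone. In the unnamed cluster led by *Gm42418*, *AY036118* and *Lars2*, with a median of 3741 UMIs, it made up 516, 509 and 462 UMIs per 1000000 in WT, 3′RR-*BCL2* and Igκ-*BCL2*, against 411, 380 and 370 in resting-like cells. The centrocyte-like subcluster of lowest depth, in which *Gm26917* was among the leading genes as in the unnamed cluster, held 754, 892 and 730, and a further centrocyte-like subcluster, with a median of 7012 UMIs, held 664, 459 and 438. *Syk* in the subcluster of lowest depth lay at 358, 498 and 520, against 244, 321 and 363 in the one with the most cells over the 3 libraries. In that of lowest depth *Cd79a* was lower in 3′RR-*BCL2* and Igκ-*BCL2*, at 1648 and 1760 against 2278 and 2254. In WT, with 20 cells in the subcluster of lowest depth, *Cd79a* lay there at 2119 against 2000.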
